A study of Mus musculus with 8 samples.

Results

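The 10 genes described here, Comp, Cilp, Cilp2, Chad, Acan, Sox9, Runx2, Sp7, Alpl and Mgp, encode matrix proteins, transcription factors and mineralization proteins of cartilage and bone, several of which also mark matrifibrocytes. They were listed by symbol, and all 10 had a row among the 22274 genes of the table. RNA-seq was performed on primary murine cardiac fibroblasts, cultured from mouse hearts, that had been transduced with virus and treated with 5 ng/ml TGF-β for 24 h. The 4 libraries labelled GFP came from cells given the empty vector (EV) and the 4 labelled OEIRF7 from cells given IRF7, an interferon regulatory factor, so that TGF-β and a virus were shared by both groups and no untreated or virus-free cells entered the comparison. By the paper the virus was an adenovirus, whose reagent name gives the CMV promoter, active in most cell types, and by the series' own design text it was an adeno-associated virus. The strain, age and sex of the mice used for these cultures are not given in the sources used here. The paper's legend calls the replicates biological, at a number lower than the 4 libraries deposited per group, and the labels do not tie the libraries to separate cultures, so that p-values measure the spread between these libraries, part of which may be technical.

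Fibroblasts of an injured heart first become contractile myofibroblasts under TGF-β, and in a mature scar they settle into matrifibrocytes, a state known for the expression of genes that otherwise belong to cartilage, bone and tendon, with Comp, Cilp2 and Chad among its markers. In the growth plate, Sox9 together with Sox5 and Sox6 drives the aggrecan and collagen genes of chondrocytes, whereas Runx2 and, below it, Sp7 (osterix) commit cells to the osteoblast fate. Mineral is deposited where alkaline phosphatase (Alpl) removes pyrophosphate, and matrix Gla protein (Mgp), activated by the vitamin K cycle, opposes it in soft tissue.

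Counts per library summed to between 24888589 and 27095611 in the empty vector libraries and to between 24454801 and 28658826 in those labelled OEIRF7. Mouse Irf7 was lower under the label OEIRF7, with 118 ± 23.96 CPM (counts scaled to library size) in the empty vector libraries and 15.2 ± 0.822 in the others (SD, n = 4 each). The adenovirus in the paper's reagent list is named for the human gene, whose reads these mouse counts would not show, so with that virus the value does not check the label, whereas with a mouse gene in the virus it would go against it. For this reason the libraries are called by their label throughout. Fibroblast markers were abundant in all 8 libraries, the 7 of them together reaching 11760 to 12219 CPM with empty vector and 11419 to 12307 CPM under OEIRF7. Of 8 chondrocyte markers, Snorc was at 0 in every library and the sum was 4.74 to 5.57 CPM and 2.65 to 3.77 CPM, and of 6 osteoblast markers, Ibsp and Mepe were at 0 in every library and the sum did not exceed 0.608 CPM.

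All but Chad and Sp7, that is 8 of the 10 genes, had enough counts to be tested (filterByExpr of edgeR). Cilp rose 4.23-fold under OEIRF7, and Acan, Comp and Sox9 fell to 0.297, 0.434 and 0.59 of their empty vector level. Cilp2, Runx2, Alpl and Mgp did not pass the test. A call means an adjusted p under 0.05 in edgeR's quasi-likelihood test on the counts, with Benjamini-Hochberg adjustment over all 13533 genes tested. By this rule 29% of all tested genes were higher and 29.9% lower under OEIRF7, so the counts of 1 higher and 3 lower among 8 are no result about the members as a group. With a log2 fold change past 1 in addition, 4.66% of all tested genes were higher and 3.89% lower, against 1 (Cilp) and 2 (Acan, Comp) of the 8. The 2 groups did not overlap in CPM for Comp, Cilp, Acan and Sox9, 4 of the 8, beside 53.8% of all tested genes. The median log2 fold change of the 8 was 0.05, and that of all tested genes was 0.0015.

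**Figure D1:**
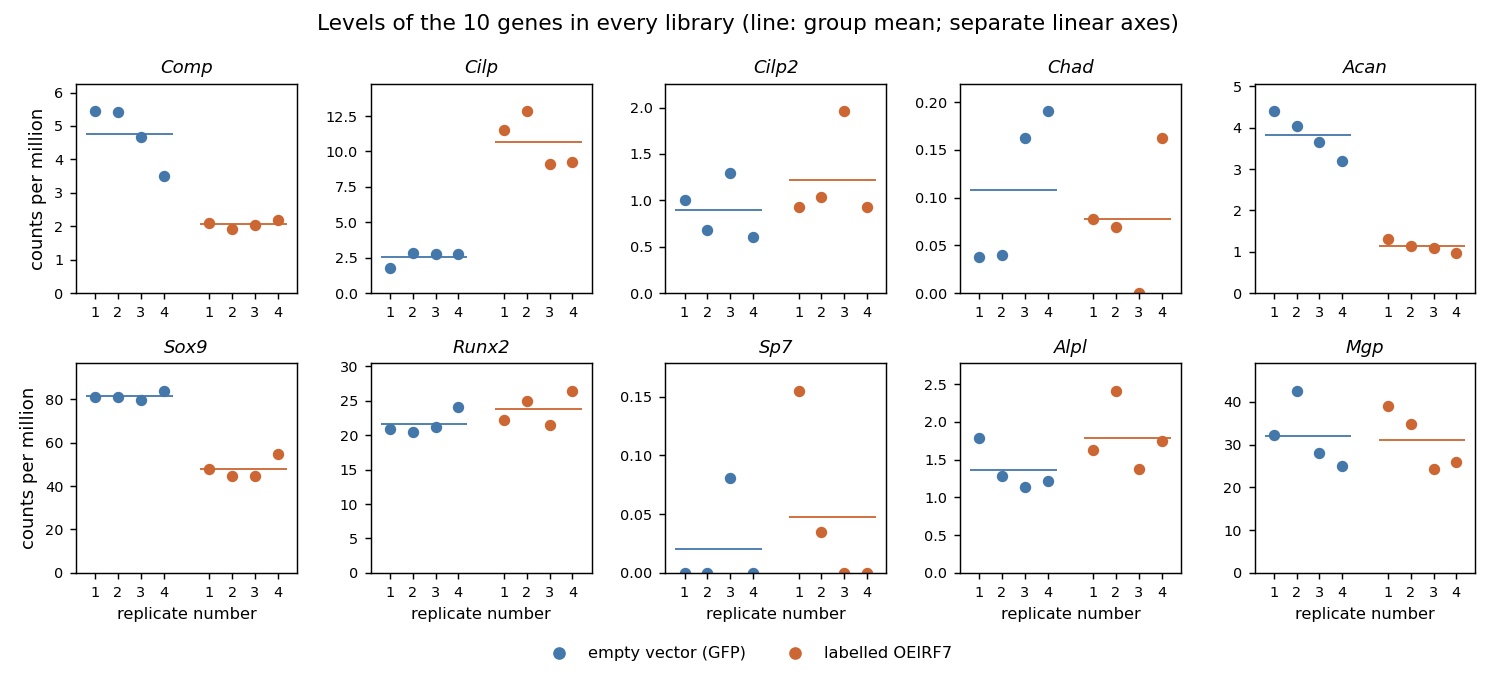
CPM of the 10 genes (vertical axes, linear, each with its own range) in the 4 empty vector and the 4 OEIRF7 libraries, by replicate number, with the group mean as a line. Points of the 2 groups are apart for Comp, Cilp, Acan and Sox9 and overlap for the other 6, and Chad and Sp7 stay below 0.2 CPM.

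**Figure D2:**
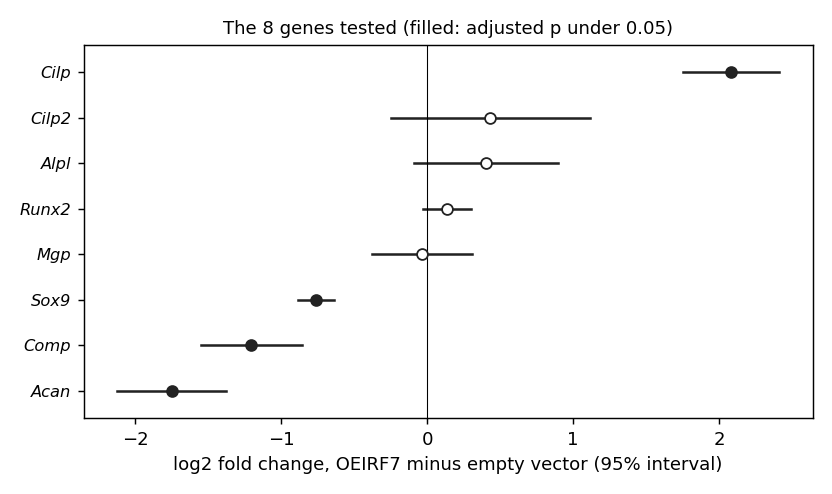
Log2 fold change (OEIRF7 minus empty vector) of the 8 genes tested, with its 95% interval, from edgeR. Intervals of Cilp, Sox9, Comp and Acan exclude 0, and those of Cilp2, Alpl, Runx2 and Mgp include it.

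To show how the levels rank, FPKM values (fragments scaled to gene length and library size, which the authors computed) were compared, since only they take gene length into account. In the empty vector libraries Mgp was highest with 51.2 ± 12.4 FPKM (SD, n = 4 in each group for all values here), then Sox9 with 19.5 ± 0.417, Runx2 with 5.41 ± 0.784 and Comp with 1.95 ± 0.371. Below 1 FPKM came Cilp with 0.605, Acan with 0.558 and Alpl with 0.533, whose libraries overlapped, and then Cilp2 with 0.208. Chad and Sp7 were lowest with 0.0625 and 0.0075 FPKM. Under OEIRF7 the first 3 places were the same, at 50.8, 11.7 and 5.84 FPKM, and Cilp came next with 2.60 ± 0.453. Alpl with 0.960 and Comp with 0.863 overlapped there, and so did Cilp2 with 0.285 and Acan with 0.178, which had fallen below Cilp2 on average. Cilp, with a lower mean than Comp in FPKM before, thus lay above all Comp values under OEIRF7, 2.20 to 3.13 FPKM against 0.81 to 0.91.

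Comp, cartilage oligomeric matrix protein, is a thrombospondin that binds collagen fibrils and is one of the defining transcripts of matrifibrocytes. The gene (ENSMUSG00000031849) occupies bases 70373558 to 70382066 of chromosome 8, plus strand, in the GRCm38 build to which all positions here refer. Empty vector libraries 1 to 4 held 146, 135, 115 and 92 counts, and OEIRF7 libraries 1 to 4 held 54, 56, 52 and 54. Every OEIRF7 library was below every empty vector library, and the 4 of them were closer to each other than the empty vector libraries were. The level was 4.76 ± 0.907 CPM with empty vector and 2.06 ± 0.108 CPM under OEIRF7 (SD, n = 4). The log2 fold change was -1.20 with a 95% interval from -1.55 to -0.86 (standard error, SE, 0.16, edgeR adjusted p = 1.4e-05). Permuting the group labels of the log2 CPM values (exact test, two-sided) gave p = 0.029, the smallest that 4 against 4 libraries allow, here and for each gene below whose groups did not overlap.

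Cilp, cartilage intermediate layer protein, is a matrix glycoprotein that binds TGF-β and is made by fibroblasts of the stressed heart. It (ENSMUSG00000042254) lies on the plus strand of chromosome 9, from 65265180 to 65280605. The 48, 71, 68 and 72 counts of the empty vector libraries stood against 297, 373, 232 and 228 under OEIRF7. In CPM the lowest OEIRF7 library, at 9.11, was above the highest empty vector library, at 2.84. The mean rose from 2.53 ± 0.497 to 10.7 ± 1.82 CPM (SD, n = 4), a log2 fold change of 2.08 (SE 0.15, edgeR adjusted p = 3.2e-08) or 4.23-fold with a 95% interval from 3.36 to 5.32.

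Cilp2, the paralog of Cilp and likewise a matrifibrocyte marker, is on the minus strand of chromosome 8, from 69880369 to 69887687 (ENSMUSG00000044006). It had 27, 17, 32 and 16 counts with empty vector and 24, 30, 50 and 23 under OEIRF7. Only the third OEIRF7 library stood above the empty vector range. The log2 fold change was 0.43, with a 95% interval from -0.25 to 1.12 and an adjusted p of 0.26 from edgeR, or a fold from 0.841 to 2.17. The intervals of the 2 paralogs, 1.75 to 2.41 for Cilp and -0.25 to 1.12 for Cilp2, did not meet. The difference between the 2 changes itself was not tested. Within a library, Cilp had 1.78 to 4.50 times the counts of Cilp2 with empty vector and 4.64 to 12.4 times under OEIRF7, a ratio of counts not adjusted for gene length, whose ranges did not overlap. Set against Comp in the same way, there were 0.329 to 0.783 Cilp counts per Comp count in the empty vector libraries and 4.22 to 6.66 in the OEIRF7 libraries.

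Chad, chondroadherin, a leucine-rich repeat protein of cartilage that binds integrin, gave 1, 1, 4 and 5 counts with empty vector and 2, 2, 0 and 4 under OEIRF7. These few counts do not show a difference at this depth. By its gene bounds, Chad (ENSMUSG00000039084, plus strand of chromosome 11, 94565047 to 94569127) overlaps Acsf2 on the opposite strand. The strand setting of the counting is not given in the sources used here. Whether the exons of the 2 genes overlap was not examined, so even these counts may be affected.

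Acan encodes aggrecan, the large proteoglycan that holds water in cartilage. Located on the plus strand of chromosome 7 from 79053483 to 79115099 (ENSMUSG00000030607), it was read 118, 101, 90 and 84 times with empty vector and 34, 33, 28 and 24 times under OEIRF7. The groups were far apart, the highest OEIRF7 library holding fewer counts than the lowest empty vector library by more than 2-fold. The level fell from 3.82 ± 0.517 to 1.13 ± 0.142 CPM (SD, n = 4). The log2 fold change of -1.75 (SE 0.17, 95% interval -2.13 to -1.38, edgeR adjusted p = 7.1e-07) was the largest fall of the 8 genes tested.

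The stretches directly before the RefSeq starts of Cilp and Acan are shown because these 2 of the 8 genes tested had the largest fold changes, in opposite directions. Of the 10 genes, 6 had an entry among the RefSeq promoters of GRCm38.p6 used here (Acan, Alpl, Chad, Cilp, Cilp2 and Runx2, with 2 starts for Alpl). The 250 bases before the RefSeq start were taken, 5′ to 3′ on the gene's own strand, at chr9:65264930-65265179 (plus strand) for Cilp and chr7:79052976-79053225 (plus strand) for Acan. Gene bounds given here come from GENCODE and can differ from the RefSeq start. The Acan window ends short of the gene's first base by GENCODE, 79053483. Capitals mark a match to a RUNX motif.
Cilp: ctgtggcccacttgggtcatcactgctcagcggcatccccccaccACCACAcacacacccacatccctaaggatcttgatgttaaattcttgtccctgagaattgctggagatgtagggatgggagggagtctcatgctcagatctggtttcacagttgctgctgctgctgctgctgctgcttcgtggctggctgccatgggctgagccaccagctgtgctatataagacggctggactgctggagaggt
Acan: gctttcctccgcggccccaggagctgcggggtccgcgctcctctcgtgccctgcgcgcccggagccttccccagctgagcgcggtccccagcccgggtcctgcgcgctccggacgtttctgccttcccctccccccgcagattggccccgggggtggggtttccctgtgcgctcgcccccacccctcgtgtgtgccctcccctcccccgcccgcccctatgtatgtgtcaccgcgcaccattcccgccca
Both strands were searched for the core of an IRF site (AANNGAAA), a RUNX site (TGTGGT), a SOX site (ACAATG) and an AP-1 site (TGANTCA). The match in Cilp, ACCACA on the strand shown, covers bases 205 to 200 before the start and is the reverse complement of the RUNX letters, which 14.0% of all 32851 RefSeq windows of this length hold. The Acan window, with a GC content of 74.4% against a median of 52.4% over all windows and 56.0% in Cilp, held none of the 4 motifs. An IRF core, present in 21.3% of all windows, was found once among the 7 windows of the 6 genes, in Runx2. It covered bases 201 to 194 before the RefSeq start, and Runx2 held a RUNX match at bases 80 to 75 as well. That RUNX match lies within the Runx2 gene bounds given here, which come from GENCODE. The SOX and AP-1 letters, present in 10.7% and 6.75% of all windows, were found in none of the 7. Such matches describe the letters of these windows only, and no binding was measured in these data.

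Sox9, the transcription factor that starts and maintains the chondrocyte programme and that is also expressed in activated fibroblasts, had the smallest standard error of the 8 genes tested. It (ENSMUSG00000000567) lies on the plus strand of chromosome 11, from 112782224 to 112787760. It was counted 2170, 2022, 1960 and 2199 times with empty vector and 1229, 1299, 1139 and 1355 times under OEIRF7. All 4 libraries labelled OEIRF7 lay well below the others. The mean was 81.3 ± 1.86 CPM with empty vector and 48.0 ± 4.81 CPM under OEIRF7 (SD, n = 4). The log2 fold change was -0.76 with a 95% interval from -0.88 to -0.64 (SE 0.057, edgeR adjusted p = 3.5e-08).

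Runx2, the master factor of osteoblasts and of hypertrophic cartilage, had 559, 511, 523 and 630 counts with empty vector and 571, 725, 547 and 652 under OEIRF7. The groups overlapped. The log2 fold change was 0.13 with a 95% interval from -0.03 to 0.30 (adjusted p = 0.14 from edgeR), or a fold from 0.981 to 1.23. By its gene bounds, Runx2 (ENSMUSG00000039153, minus strand of chromosome 17, 44495987 to 44814797) overlaps Supt3 and 3 antisense RNAs on the opposite strand. Whether their exons overlap was not examined, so the Runx2 counts may be affected if strand was not used. Sp7 (ENSMUSG00000060284, minus strand of chromosome 15, 102356606 to 102367182), the zinc finger factor that acts after Runx2, was counted 0, 0, 2 and 0 times with empty vector and 4, 1, 0 and 0 times under OEIRF7. In 5 of the 8 libraries it had no count, and no fold change is given.

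Alpl, tissue-nonspecific alkaline phosphatase, lies on the minus strand of chromosome 4, from 137741733 to 137796384 (ENSMUSG00000028766). Its counts were 48, 32, 28 and 32 with empty vector and 42, 70, 35 and 43 under OEIRF7. The first empty vector library reached into the OEIRF7 range. From counts, the level was 1.36 ± 0.296 and 1.79 ± 0.443 CPM (SD, n = 4), a log2 fold change of 0.40 with a 95% interval from -0.09 to 0.89 (adjusted p = 0.15 from edgeR). The FPKM of the authors gave another picture. They were 0.70, 0.50, 0.45 and 0.48 with empty vector and 0.94, 1.33, 0.79 and 0.78 under OEIRF7 and did not overlap. The ratio of the group means was 1.80 in FPKM but 1.32 in CPM, whereas for the other 7 genes tested the 2 ratios differed by at most 1.08-fold. With limma on log2(FPKM + 1) the rise of Alpl passed the test, at 0.35 on that scale (adjusted p = 0.0096). Whether Alpl rose therefore depends on the unit.

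**Figure D3:**
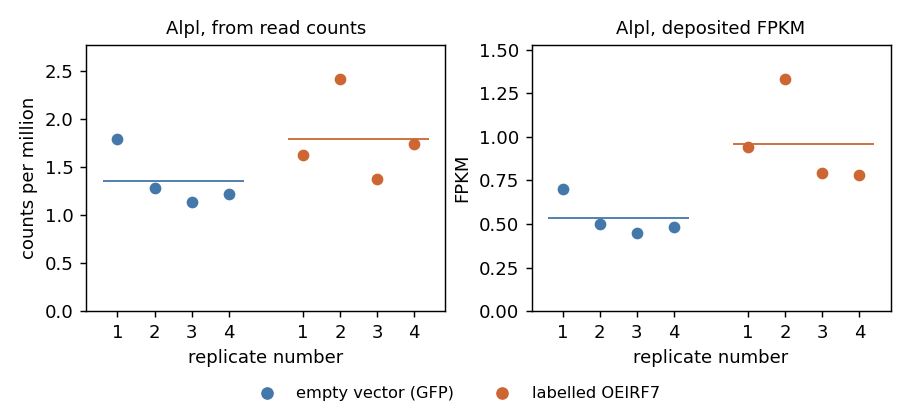
Alpl in each library by replicate number, in CPM from the counts (left) and in the FPKM of the authors (right), on linear axes from 0, with the group mean as a line. In CPM the first empty vector library, at 1.79, lies above 3 of the 4 OEIRF7 libraries, and in FPKM all 4 OEIRF7 libraries lie above all empty vector libraries.

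Mgp (ENSMUSG00000030218, minus strand of chromosome 6, 136872435 to 136875823), the mineralization inhibitor and by FPKM the most abundant of the 10, had 862, 1063, 692 and 653 counts with empty vector and 1007, 1011, 619 and 642 under OEIRF7. In both groups replicates 1 and 2 were above replicates 3 and 4, and the groups overlapped over most of their range. The level was 31.9 ± 7.71 CPM with empty vector and 31.1 ± 7.04 CPM under OEIRF7 (SD, n = 4). The log2 fold change of -0.04 had a 95% interval from -0.38 to 0.30 (adjusted p = 0.86 from edgeR), or a fold from 0.770 to 1.24.

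Genes of the same families were then set beside the members. Differences between the changes of relatives were not tested. Called genes of 1 family pointed both ways among the thrombospondins and among the relatives of aggrecan. Among the thrombospondins, Thbs2, a secreted protein that inhibits vessel growth and binds matrix, fell as Comp did, from 715 ± 43.3 to 263 ± 23.99 CPM (log2 fold change -1.44, SE 0.059). Thbs1, an activator of latent TGF-β and by FPKM the most abundant of the family, rose from 1937 ± 99.5 to 2661 ± 186 CPM (log2 fold change 0.46). Thbs3 and Thbs4 rose by 0.34 and 0.75 on the log2 scale, the latter from 15 to 24 counts with empty vector to 28 to 35 under OEIRF7. There were 0.342 to 0.405 Thbs2 counts per Thbs1 count with empty vector and 0.0907 to 0.107 under OEIRF7.

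Aggrecan's relative Vcan, versican, the large proteoglycan of loose and provisional matrix, had 5403, 4356, 5220 and 5959 counts with empty vector and 9863, 11311, 10467 and 9746 under OEIRF7. It thus rose while Acan fell, with a log2 fold change of 0.95 (SE 0.061, edgeR adjusted p = 6.2e-09). Per Acan count there were 43.1 to 70.9 Vcan counts with empty vector and 290 to 406 under OEIRF7. Bcan had a log2 fold change of 0.28 that did not pass the test, and Ncan had at most 4 counts.

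Of the chondrocyte trio, Sox5 had 492, 469, 452 and 499 counts with empty vector and 232, 221, 197 and 164 under OEIRF7. It fell by 1.26 on the log2 scale (SE 0.082). Sox6 had 391 to 477 and 355 to 454 counts and a log2 fold change of -0.10 with a 95% interval from -0.25 to 0.05. Within a library the Sox5 count was 0.227 to 0.232 of the Sox9 count with empty vector and 0.121 to 0.189 under OEIRF7, and the Sox6 count was 0.193 to 0.218 and 0.262 to 0.366 of it. The other 2 SoxE factors, Sox8 and Sox10, had log2 fold changes of -0.12 and 0.12, with intervals that held 0.

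Runx1, best known from blood formation, rose from 45.7 ± 2.87 to 66.3 ± 3.60 CPM (log2 fold change 0.54, SE 0.052), whereas Cbfb, the partner subunit of all Runx proteins, had a log2 fold change of -0.02 (95% interval -0.13 to 0.10) and Runx3 had at most 12 counts. Of the Sp factors that are related to Sp7, Sp1 and Sp3 each fell by 0.19 on the log2 scale. The alkaline phosphatases of the intestine and placenta, Alpi, Akp3 and Alppl2, had at most 7 counts in any library.

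**Figure D4:**
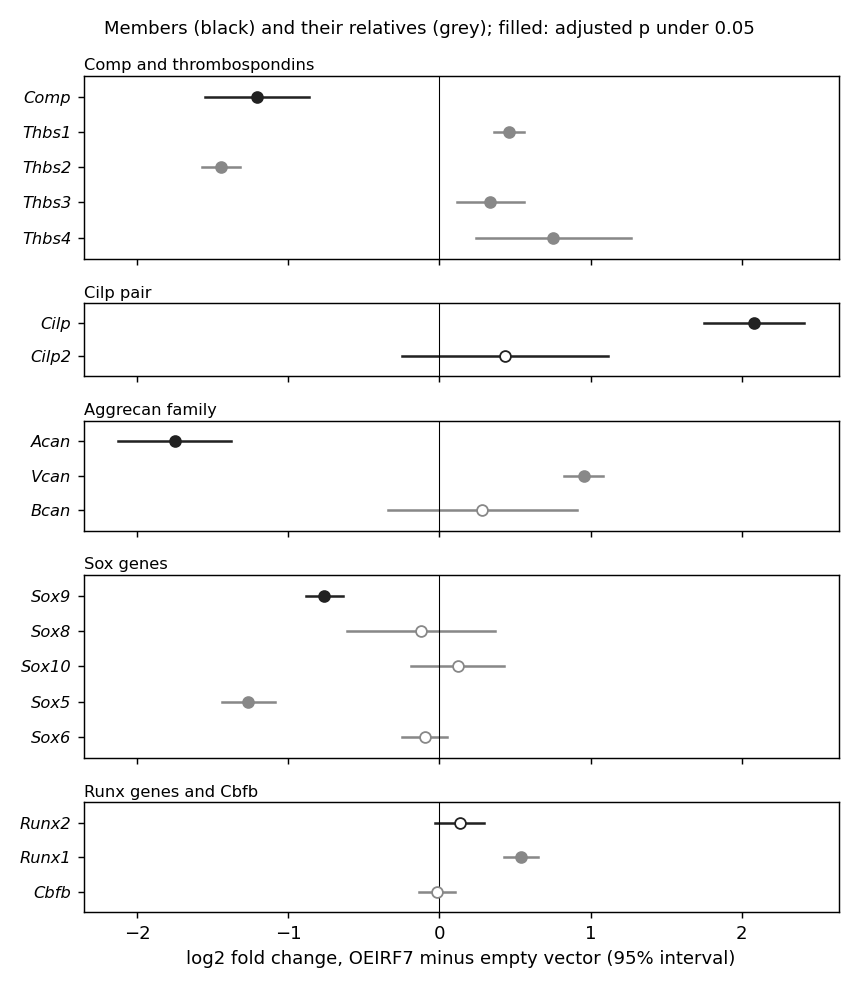
Log2 fold change with its 95% interval for members (black) and their relatives (grey) by family, filled where the adjusted p was under 0.05. Comp and Thbs2 lie left of 0 and the other thrombospondins right of it, Acan and Vcan lie on opposite sides, and Sox9 and Sox5 lie left while Sox6 is at -0.10.

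Beyond the families, 5 lists of related genes were counted, 83 genes in all with 52 tested, of which 15 were higher and 21 lower (29% and 29.9% among all genes tested). In the cartilage list, 14 of 24 genes were tested, and 10 were lower, 1 higher and 3 did not pass, with a median log2 fold change of -0.81 against 0.0015 over all tested genes. Col2a1, the main fibrillar collagen of cartilage, had 48, 48, 58 and 57 counts with empty vector and 34, 16, 13 and 30 under OEIRF7 (log2 fold change -1.20). Hapln1, the link protein that fixes aggrecan to hyaluronan, had 116, 88, 87 and 101 counts against 21, 11, 33 and 28 and fell by 2.09. In each of these the groups did not overlap. The adaptor protein Matn4 fell by 1.46, and Col11a1, a minor fibrillar collagen and by FPKM the most abundant gene of the list, from 831 ± 26.1 to 502 ± 17.8 CPM (log2 fold change -0.73). Col9a2 and Col10a1 fell as well, from 11 to 28 counts to 1 to 3 and from 11 to 17 counts to 1 to 8. Prg4, lubricin, the lubricant of joint surfaces, was the gene that rose, from 6.07 ± 0.855 to 11.7 ± 1.17 CPM (log2 fold change 0.95). The summed level of the chondrocyte markers, all 8 of which are in this list, was lower under OEIRF7 too but is not separate from these genes. With empty vector it was mostly Col2a1 (2.06 CPM), Matn3 (1.53 CPM) and Col9a3 (1.27 CPM). Matn3 fell by 0.89 on the log2 scale, and Col9a3, with a log2 fold change of 0.16, did not pass the test. The part that a few cells of that kind would have in the result was not tested. In bulk RNA, fewer cells of a type and less RNA per cell cannot be told apart.

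In the bone list, 11 of 23 genes were tested, with 2 higher, 4 lower and 5 that did not pass. The median log2 fold change was -0.02, and of all tested genes 29% were higher and 29.9% lower. The 2 that rose were Spp1, osteopontin, a phosphoprotein of bone and of injured tissue, from 240 ± 22.1 to 443 ± 29.8 CPM (log2 fold change 0.88), and Fam20c, the kinase that phosphorylates such proteins (log2 fold change 0.47). Ogn, osteoglycin, a small leucine-rich proteoglycan, fell from 192 ± 7.86 to 79.6 ± 3.84 CPM (log2 fold change -1.27, SE 0.042). Omd, another such proteoglycan, fell by 0.62, Tnfrsf11b, the decoy receptor osteoprotegerin, by 0.47 and the sphingomyelinase Smpd3 by 0.57. The transcripts of mature osteoblasts and osteocytes were hardly present. Ibsp and Mepe had no count, Bglap, Bglap2, Ifitm5, Sost and Dmp1 at most 8 in any library.

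Genes of phosphate and pyrophosphate handling were among those that rose. Of the 11 genes listed for mineralization and the vitamin K cycle, 10 were tested, with 6 higher, 1 lower and 3 that did not pass. Their median log2 fold change was 0.36, and of all tested genes 29% were higher and 29.9% lower. Slc20a1, a sodium-phosphate transporter, had 2373, 2300, 2270 and 2501 counts with empty vector and 5646, 6487, 5474 and 5556 under OEIRF7, more than 2-fold apart at every pair of libraries. Its log2 fold change was 1.26 (SE 0.035, edgeR adjusted p = 2.1e-12). Enpp1, which makes pyrophosphate, rose from 39.7 ± 1.88 to 72.2 ± 2.84 CPM (0.86), Nt5e, which makes adenosine from AMP, by 0.85, and Ank, a membrane protein that raises pyrophosphate outside the cell, by 0.25. Slc20a2 and Phospho1, a phosphatase of matrix vesicles, passed the test at 0.13 and 0.47, with libraries that overlapped. Of the enzymes of the vitamin K cycle, on which Mgp depends, Ggcx and Vkorc1 did not pass the test, with log2 fold changes of 0.01 and -0.07 and 95% intervals of -0.07 to 0.09 and -0.18 to 0.03, and Vkorc1l1 fell by 0.36.

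In the tendon list, 5 of 7 genes were tested, with 1 higher, 3 lower and 1 that did not pass. The median was -0.17, and of all tested genes 29% were higher and 29.9% lower. Scx, scleraxis, the transcription factor of tendon progenitors and an activator of collagen genes in cardiac fibroblasts, fell from 10.9 ± 0.957 to 3.98 ± 0.466 CPM (log2 fold change -1.46). Fmod, fibromodulin, which binds collagen fibrils, fell from 2311, 2264, 1590 and 1724 counts to 469, 503, 397 and 464 (log2 fold change -2.14, SE 0.11). Mkx fell by 0.17. Egr2, an early response transcription factor that acts in tendon but in many other cells too, rose from 4.29 ± 0.682 to 13.2 ± 1.84 CPM (log2 fold change 1.62). In the list of paralogs, most of which are described above, 12 of 18 were tested, with 5 higher, 3 lower and a median of 0.20. Those counts stand beside the same 29% and 29.9% of all tested genes. With a log2 fold change past 1, 2 of all 52 related genes tested were higher and 10 lower, beside 4.66% higher and 3.89% lower of all tested genes.

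**Figure D5:**
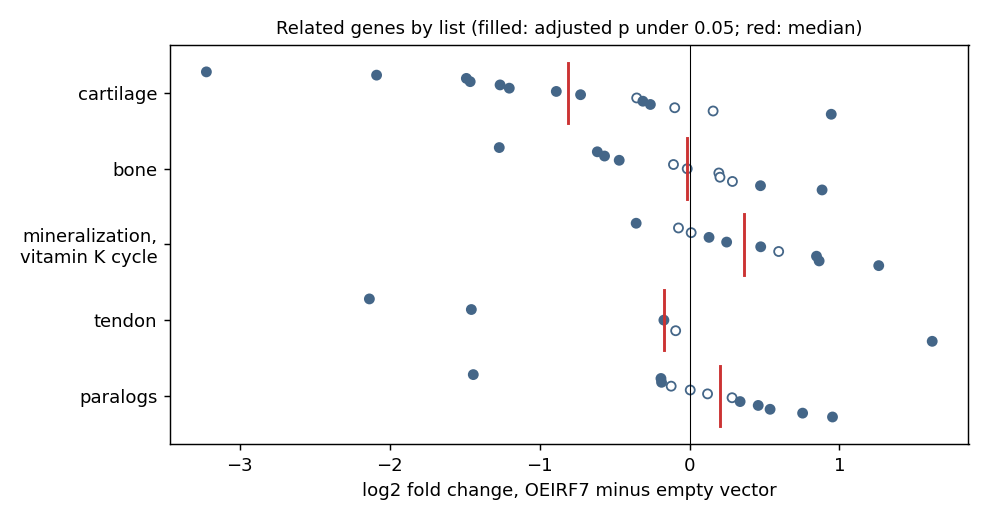
Log2 fold change (OEIRF7 minus empty vector) of each related gene tested, by list, filled where the adjusted p was under 0.05, with the list's median in red. The cartilage median is at -0.81 and that of mineralization and the vitamin K cycle at 0.36, and the bone, tendon and paralog medians are nearer 0.

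Markers of other cells of the heart were set beside these values. Summed over each list, macrophage markers were at 250 to 299 CPM with empty vector and 306 to 339 CPM under OEIRF7, without overlap, and epicardial markers at 125 to 140 CPM and 86.0 to 91.6 CPM, also without overlap. Endothelial markers reached 180 to 187 CPM and 172 to 194 CPM and mural markers 8.06 to 10.98 CPM and 10.2 to 12.9 CPM, and both overlapped. Single genes within these sums were called in both directions. Kdr rose by 0.79 on the log2 scale and Cdh5 fell by 0.11, while Rgs5 and Des rose by 0.73 and 1.08 and Myh11 fell by 0.98. Cardiomyocyte markers were at 10.2 to 13.9 CPM and 8.39 to 10.1 CPM, without overlap, with Myh6 at 1 count at most. That sum was mostly Tnnt2, at 11.3 CPM with empty vector and 7.78 CPM under OEIRF7, which was called lower (-0.54). Ttn, the other cardiomyocyte marker tested, had a log2 fold change of 0.64 and did not pass the test. Of the macrophage markers, 3 of 5 were called higher and none lower. Of the 4 epicardial markers, 1 was higher (Msln, 0.19) and 2 were lower (Upk3b, -1.32, and Tbx18, -0.29). Wt1, with a log2 fold change of 0.75, did not pass the test. The fall of the epicardial sum thus came from Upk3b and Tbx18. Taken singly, 29% of all tested genes were higher, 29.9% were lower and 53.8% did not overlap between the groups. Spp1, which macrophages make as well, had a log2 fold change of 0.88, and the 5 macrophage markers had 0.44 (Adgre1), 0.22 (Lyz2), 0.21 (Cd68), 0.06 (Csf1r) and -0.08 (Ptprc), of which Adgre1, Lyz2 and Cd68 were called. Of the 7 fibroblast markers, 2 were called higher and 3 lower. Pdgfra and Vim rose by 0.25 and 0.22 on the log2 scale. Tcf21, a transcription factor of resident fibroblasts, fell by 1.33, Ddr2 by 0.25 and Col1a1 by 0.16. Dcn and Col1a2, with log2 fold changes of -0.02 and -0.05, did not pass the test. The part of these markers' cells in the results was not tested.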

How the data were processed

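RNA-seq libraries of mouse cardiac fibroblasts, 4 labelled GFP and 4 labelled OEIRF7, were compared. Per the paper's methods, trimmed reads were aligned to GRCm38 with HISAT2 and summed by gene with HTSeq-count, and the authors deposited these raw counts. FPKM from Cufflinks were deposited beside them, normalized for length and depth and rounded to 2 decimals. Columns with the authors' own fold change, p-value and FDR were not used. Different RNA and library kits are named by the labels and by the paper, and the strand setting of the counting is not given in the sources used here.

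In 121 gene symbols the letters GFP stood in place of nc, and these were restored by Ensembl identifier. Coordinates came from GENCODE M21 (22219 of 22274 identifiers found). Counts were analysed with edgeR 4.0.16 in R 4.3.3 (filterByExpr, TMM factors 0.989 to 1.01, glmQLFit, glmQLFTest, no covariates). CPM, FPKM means and SD are per group, and log2 CPM used a prior count of 2. All pairs of replicates were further apart than sampling noise (chi-square per degree of freedom from 2.69), so none was counted as a duplicate. Values of genes under 1 CPM come from few reads.

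The members and lists were chosen with earlier results of these data known. All members are named. Of the lists, genes with an adjusted p under 0.05, a log2 fold change past 1 and at least 1 CPM in a group were to be named, and other list members, given for family or list context, were chosen after their values were seen. For the patterns, the 2 genes with the highest correlation over the 8 libraries were named per member of at least 1 CPM.

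Alternatives were library size alone, upper-quartile scaling, DESeq2 1.42.0, a minimum of 1 count in total or of 10 per library, a block for the replicate number, each library left out in turn, limma 3.58.1 on log2 FPKM with a pseudocount of 1 or 0.1 (mean FPKM over 0.1), and 2 other call rules. The tests were tested on simulated data of this comparison: among 13439 genes edgeR recovered 185 of 197 changed by 2-fold, with 4.64% false calls. In the simulation only these few genes changed, all by the same fold. In the real data 29% of all tested genes were called higher and 29.9% lower, so the simulated rates need not hold there.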

Additional observations from a re-analysis of the deposited data

Results flagged for a closer look

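Some libraries lay far from the other 3 of their group, by the gap to the nearest library as a share of the group's range. This was seen in 6 of 36 groups of 4 examined, and chance gives about 1 in 20. The first empty vector library was low for Cilp (share 0.907, 1.79 CPM against 2.75 to 2.84) and high for Matn4 (0.879). The third OEIRF7 library was high for Cilp2 (0.900, 1.96 CPM against 0.930 to 1.03), high for Ogn (0.857) and low for Egr2 (0.898). The fourth empty vector library was high for Egr2 (0.836). Without the third OEIRF7 library the log2 fold change of Cilp2 was 0.11 in place of 0.43, and neither passed the test. Without the first empty vector library that of Cilp was 1.94 in place of 2.08.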

How the results depend on the processing

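The rise of Cilp and the falls of Comp, Acan and Sox9 kept direction and call under each of the 16 alternatives that refit the data, and so did the 10 related genes past 1 on the log2 scale that reach 1 CPM in a group (Col9a2 and Col10a1, below that level, were not followed). Of the 2 other call rules, the one that asks for a log2 fold change past 1 left 1 member higher and 2 lower, without Sox9. Counts of members, 1 higher and 3 lower, were the same without any 1 library. Both limma fits on FPKM gave 2 higher members, since Alpl then passed the test (0.35 with a pseudocount of 1 and 0.73 with 0.1 on those log2 scales, adjusted p = 0.0096 and 0.0088), against an adjusted p of 0.06 to 0.46 under the alternatives on counts. Mgp, which never passed the test, had a log2 fold change from -0.16 to 0.13 when 1 library was left out, with a positive sign without empty vector replicate 2 (0.13), OEIRF7 replicate 3 (0.06) or OEIRF7 replicate 4 (0.04). Of the related genes, a log2 fold change past 1 left 2 higher and 10 lower, and the study's thresholds (fold over 1.5 or under 0.66, unadjusted p) left 8 and 13, by construction of these rules.

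Libraries of the same number are not stated to share a culture. Their deviations from the group means correlated at 0.079 to 0.14, not all above 0.1, though all 8 libraries correlated best with their own number, and the samples were treated as unpaired. With the replicate block, 1 member was higher and 3 lower, 15 related genes were higher and 21 lower, and the count over all genes went from 3924 to 4057 higher and from 4045 to 4154 lower. The block lowered the standard error of Mgp from 0.16 to 0.077 and left that of Comp at 0.16. Mgp still did not pass the test, at -0.04 (edgeR adjusted p = 0.69). Chad and Sp7 lie below what this depth can compare.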

Other observations

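For each member of at least 1 CPM in a group, the genes most like it in log2 CPM over the 8 libraries were listed among 12724 genes of that level, as a description. The 8 points fall into 2 groups, so that for members that moved any gene that moved likewise scores high. Comp was followed closest by Hand2, a transcription factor of the developing heart (Pearson r = 0.997), and by Apoe, an apolipoprotein (0.997). For Cilp these were Ints2 and Las1l (0.995 and 0.994), which act in the processing of small nuclear and ribosomal RNA. For Acan they were mt-Co3, a mitochondrial subunit of cytochrome oxidase (0.998), and Limch1 (0.997), and for Sox9 the Wnt receptor Fzd4 and Cops7a (both 0.998). From 524 to 1287 genes had an r over 0.95 with each of these 4. The members that did not pass the test had few such genes. Runx2 had 2 (Wfs1 and L1cam, 0.967 and 0.960), Cilp2 had 3 (led by an unnamed gene and Heph), Alpl had 1 (Rubcnl, 0.953, before Mynn at 0.949) and Mgp had none, with Rnaseh2c at 0.940 and Lix1l at 0.934.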
